A study of Homo sapiens with 6 samples.

Results

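Open chromatin was examined at the genes of the surface antigens that define the sorting gates: CD9, EPCAM and PODXL. Members were the open regions of the deposited table whose midpoint lay in a window around each gene in the human genome build hg19, namely 6.28 to 6.37 Mb of chromosome 12 for CD9, 47.55 to 47.63 Mb of chromosome 2 for EPCAM and 131.16 to 131.27 Mb of chromosome 7 for PODXL. These windows held 20 of the 118556 regions, with 6 at CD9, 6 at EPCAM and 8 at PODXL. All samples came from WA09, a human embryonic stem cell line that carries no genetic change named in the labels. The GCTM-2highCD9highEPCAMhigh population (high) held the cells brightest for all the antibodies, and the GCTM-2midCD9mid population (mid, called low in the sample titles) held cells of intermediate stain, with 3 samples each. The study's methods call these biological replicates. The series text mentions culture on matrigel in mTeSR1 with and without protein kinase C inhibitors, and no label of these 6 samples names such an agent. Both populations came from the same line, so the values describe these gates of WA09 and no other line.

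CD9 is a tetraspanin, a protein that crosses the membrane several times and gathers integrins and immunoglobulin-family partners into membrane domains; the antibody TG30 used for sorting recognises it. EPCAM is an epithelial adhesion molecule of undifferentiated stem cells that binds claudin-7. PODXL encodes podocalyxin, a heavily glycosylated sialomucin of the CD34 family that is linked through NHERF1 (gene SLC9A3R1) to the membrane-cytoskeleton linker ezrin. The GCTM-2 antibody binds a keratan sulphate proteoglycan whose core is generally taken to be podocalyxin, although neither the labels nor the methods name its gene. Sorting on surface protein is not a measurement of chromatin, and the question these counts answer is whether the chromatin of the antigens' own genes was also more open in the cells that carried more antigen.

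The sequence just before a gene's start is where general transcription factors bind, and 2 such stretches are shown because their starts are generally placed inside the best-read open regions of the CD9 and EPCAM windows. They were taken by symbol from a RefSeq promoter table of GRCh38.p14, a different build from the counts, and no position was moved between builds. The first ends next to the start of the main CD9 transcript, at chr12:6200150-6200399 on the plus strand of GRCh38.p14. The second precedes EPCAM-DT, a noncoding gene that runs away from EPCAM, at chr2:47345075-47345324 on the minus strand. Capitals mark matches on either strand to GGGCGG (the GC box), to CCAAT (named the CCAAT box), to TATAAA (the TATA box) or to ATGCAAAT (the octamer read by POU factors).
CD9 promoter: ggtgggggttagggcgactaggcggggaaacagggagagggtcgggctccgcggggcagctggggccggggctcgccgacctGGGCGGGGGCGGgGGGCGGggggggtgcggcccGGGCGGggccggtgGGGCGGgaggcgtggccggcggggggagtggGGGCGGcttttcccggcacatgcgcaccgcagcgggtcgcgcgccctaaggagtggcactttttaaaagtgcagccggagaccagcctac
EPCAM-DT promoter: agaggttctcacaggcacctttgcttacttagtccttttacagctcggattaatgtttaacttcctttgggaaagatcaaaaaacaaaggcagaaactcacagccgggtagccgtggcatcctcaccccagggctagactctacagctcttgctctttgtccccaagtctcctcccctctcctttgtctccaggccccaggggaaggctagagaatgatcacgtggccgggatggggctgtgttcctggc
The CD9 stretch had a GC content of 76.8% and held 6 GC boxes that did not overlap one another, with no match to the other 3 motifs. The table lists 3 more CD9 starts, whose stretches had 0, 3 and 0 GC boxes and GC contents of 52.8%, 76.8% and 44.8%, and the stretch shown was taken for its transcript. The EPCAM-DT stretch had a GC content of 52.8% and held none of the 4 motifs. Among the 35116 stretches of the same 250 bases in the table, the median GC content was 58%, and 42.6% held a GC box, 32.0% held a CCAAT box, 10.7% held a TATA box and 1.63% held the octamer. These matches describe letters in the reference, and no binding was measured.

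The measurement was FAST-ATAC, in which the Tn5 transposase inserts sequencing adapters into accessible DNA, so that the number of reads in a region rises with its accessibility. Over all regions, high libraries held between 15486251 and 26225539 reads and mid libraries between 23091028 and 29025274. Values are given as CPM, counts relative to the library's total after scaling by TMM factors, which lay between 0.917 and 1.05. Differences are log2 fold changes of high over mid from the edgeR quasi-likelihood test over all regions, in which same-numbered samples formed a pair, and a region was called when its p, adjusted by the Benjamini-Hochberg method over all regions, was under 0.01. The reads of a sample are a sum over its cells, so fewer cells with an open region and a region less open in every cell cannot be told apart. The 20 regions were covered by 435 to 6339 reads each over the 6 samples, with 32 to 1630 in a single sample.

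Among the 20 regions, the one over the PODXL start was called more accessible in the mid population, where 3.77% of all regions were called in that direction. None was called more accessible in the high population, against 2.32% of all regions. Both counts are near these shares for 20 regions and set the loci apart from the table in neither direction. Unadjusted p-values under 0.05 were found in 3 regions, each with the lower mean in the high population, whereas 27.8% of all regions had such a p in either direction. The log2 fold change was below 0 in 16 regions and above 0 in 4, with a median of -0.14 and a range from -0.60 to 0.21, beside a median of 0.03 over all regions. In no region did the 3 high samples all lie above the 3 mid samples, which 12.9% of all regions showed. In 3 regions they all lay below them, which 13.0% of all regions showed.

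**Figure D1:**
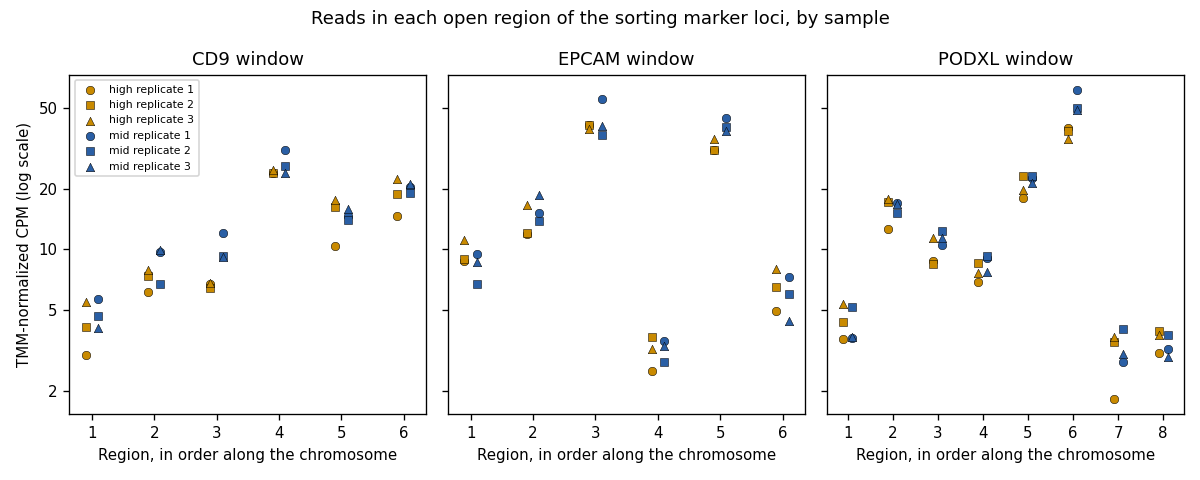
TMM-normalized CPM (log scale) in each of the 20 open regions, numbered along the chromosome within the CD9, EPCAM and PODXL windows; orange symbols are the 3 high samples and blue symbols the 3 mid samples, with circles, squares and triangles for replicates 1, 2 and 3. The groups separate in CD9 region 3, EPCAM region 5 and PODXL region 6, each time with the high samples below the mid samples.

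The regions were wide and well read compared with the table as a whole. Their median width was 1512 bp against 879 bp for all regions, and their median level was 7.46 CPM per kb against 4.43. In each window the most-read region covered a gene start, and it held from 28.5% to 47.1% of the window's reads in a sample. Which region covers a start is general knowledge of the gene map, since no hg19 annotation was read. Per length, the EPCAM start region averaged 13.3 ± 0.949 CPM per kb for high and 16.9 ± 1.27 for mid (SD, n = 3). The PODXL start region averaged 11.4 ± 0.691 and 16.04 ± 2.03 CPM per kb, the EPCAM-DT start region 12.2 ± 0.327 and 13.3 ± 2.93, and the CD9 start region 8.71 ± 0.186 and 9.76 ± 1.36. By these means the EPCAM start was the most and the CD9 start the least read per length in both populations, and PODXL and EPCAM-DT changed places between them. The ranges of neighbours in this order overlapped, except that in the high samples the EPCAM start lay above EPCAM-DT, and the CD9 start below PODXL, in all 3 samples.

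PODXL held the only called region. The region at chr7:131240340-131243670, 3331 bp wide, was the most read of all 20 and covers the start of the gene, which runs on the minus strand. Its CPM were 39.6, 38.6 and 35.2 in high replicates 1, 2 and 3 and 61.2, 50.03 and 49.1 in mid replicates 1, 2 and 3. Every high sample lay below every mid sample, and the means were 37.8 ± 2.30 and 53.4 ± 6.75 (SD, n = 3). On the log2 scale the fold change was -0.49 (SE 0.12, 95% interval -0.74 to -0.25, adjusted p = 0.00422). All 3 pairs moved the same way, by -0.63, -0.37 and -0.48 on the log2 scale. In 19 other ways of fitting the data the estimate stayed below 0, from -0.55 to -0.24, and the region was called in 11 of them. It was not called with loess offsets on region width (-0.24, adjusted p = 0.132) or on average CPM (-0.25, adjusted p = 0.112), without the block (adjusted p = 0.0382), or without the replicate 2 pair (-0.55, adjusted p = 0.136).

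The other 7 PODXL regions were not called and their groups overlapped, with log2 fold changes from -0.26 to 0.12. The best-read of them, at chr7:131230687-131233367 inside the gene, averaged 20.2 ± 2.54 CPM in high samples and 22.3 ± 0.860 CPM in mid samples, which left a log2 fold change of -0.14 (SE 0.14). The region with the smallest p toward the high population lay before the start, at chr7:131266007-131266898, 24.4 kb from the middle of the start region. It had CPM of 3.08, 3.94 and 3.78 in the high samples and 3.23, 3.77 and 2.95 in the mid samples. These values overlapped, and the log2 fold change was 0.12 (95% interval -0.31 to 0.56, adjusted p = 0.747). In all samples together 470 reads fell there.

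At CD9 all 6 regions had log2 fold changes below 0, from -0.60 to -0.04, and none was called. The region with the smallest p lay before the gene, at chr12:6304544-6305629, and was 1086 bp wide. Its CPM were 6.73, 6.46 and 6.81 in the high samples and 12.1, 9.26 and 9.20 in the mid samples. The 3 high samples were nearly level with each other and all below the mid samples. The log2 fold change was -0.60 (SE 0.17, 95% interval -0.95 to -0.25), the lowest of the 20, with an unadjusted p of 0.0012 and an adjusted p of 0.0161. This missed the threshold. The region was called with upper quartile scaling (-0.62, adjusted p = 0.00867) and with loess offsets on region width (-0.65, adjusted p = 0.00709). No other alternative fit called it. The adjusted p was 0.0653 without the block, 0.0308 with DESeq2 and 0.179 without the replicate 2 pair.

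The CD9 start region itself, at chr12:6308321-6311081 and 2761 bp wide, showed a smaller difference. Its CPM were 23.7, 23.7 and 24.6 in the high samples and 31.1, 25.9 and 23.8 in the mid samples. Mid replicate 1 stood above the other 5 samples, which overlapped. This gave a log2 fold change of -0.16 (SE 0.14, 95% interval -0.43 to 0.12, adjusted p = 0.477). Inside the gene, the regions at chr12:6313467-6315250 and chr12:6323426-6325654 had log2 fold changes of -0.04 and -0.13 and standard errors of 0.16 and 0.15. In both, high replicate 1 was the lowest sample, at 10.4 and 14.6 CPM, and high replicate 3 was the highest, at 17.6 and 22.2 CPM.

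EPCAM had most of its reads in a pair of strong regions. The region over the main EPCAM start, at chr2:47595485-47597919 and 2435 bp wide, had CPM of 31.0, 30.9 and 35.0 in the high samples and 44.6, 40.5 and 38.5 in the mid samples. The groups did not overlap, with the high samples lower. Its log2 fold change was -0.35 (SE 0.13, 95% interval -0.60 to -0.09), with an unadjusted p of 0.00822 and an adjusted p of 0.0579, which missed the threshold. No alternative fit called it, and the smallest adjusted p was 0.0152, without high replicate 3. The estimate was -0.14 with loess offsets on average CPM (adjusted p = 0.440) and -0.18 with those on region width (adjusted p = 0.293).

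The most-read EPCAM region, at chr2:47571147-47574467 and 3321 bp wide, lay 23.9 kb away over the start generally given for EPCAM-DT. Its CPM were 41.1, 41.4 and 39.4 in the high samples and 55.1, 36.7 and 40.6 in the mid samples. Mid replicate 1 was the highest and mid replicate 2 the lowest, with all high samples between them. The log2 fold change was -0.10 (95% interval -0.35 to 0.16, adjusted p = 0.658), and it turned to 0.04 without the replicate 1 pair. Whether it differed from that of the EPCAM start was not tested.

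The region with the smallest p toward the high population at EPCAM was at chr2:47549977-47551328. It had CPM of 8.79, 8.92 and 11.1 in the high samples and 9.54, 6.75 and 8.70 in the mid samples. The groups overlapped, and the log2 fold change was 0.21 (95% interval -0.13 to 0.56, adjusted p = 0.444). It was the highest of the 20 estimates. The region past the end of EPCAM, at chr2:47615090-47615965, had a log2 fold change of 0.15 (SE 0.20), from pairs at -0.56, 0.12 and 0.84.

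**Figure D2:**
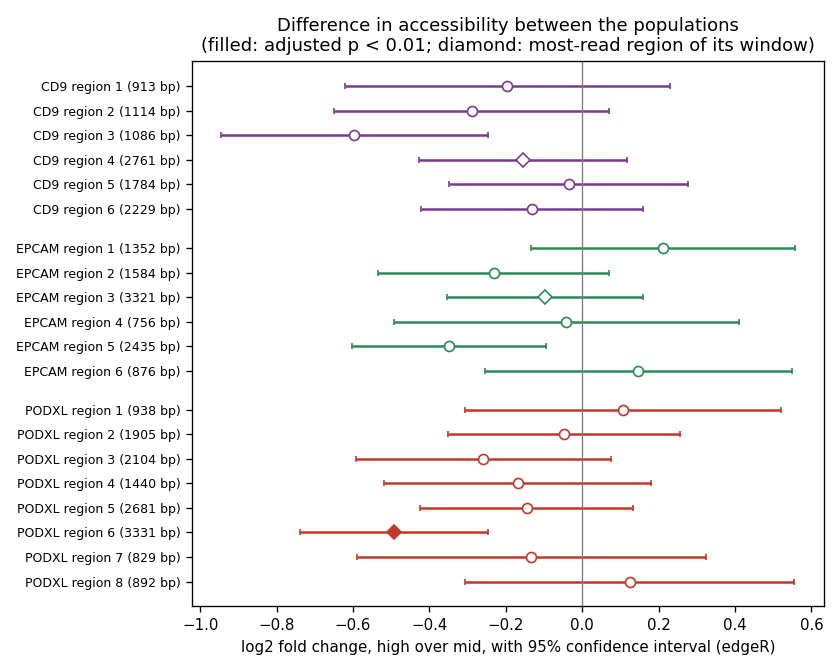
Estimated log2 fold changes (high over mid) with the 95% confidence interval (edgeR) for each of the 20 regions, with widths in bp; a filled symbol marks an adjusted p under 0.01 and diamonds mark the most-read region of each window. PODXL region 6 is the only filled symbol, at -0.49, and the intervals of 17 regions include 0.

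The downward lean of the 20 regions rested on the replicate 1 pair. In that pair all 20 regions were lower in the high sample, with a median log2 difference of -0.46. The share lower in that pair was 49.2% for all regions. It was 77.4% for the widest 10% of regions, whose median log2 difference was -0.38. In the replicate 2 pair 11 regions were lower and 9 higher, with a median of -0.06. Lower in that pair were 47.6% of all regions and 68.3% of the widest 10%. The replicate 3 pair had 10 lower and 10 higher, with a median of 0.02, and here the shares were 46.6% and 67.2%. Of the 20 regions 6 were lower in all 3 pairs, and none was higher in all 3. The shares of all regions that did so were not computed. Fitted without the replicate 1 pair, the median over the 20 regions was 0.03, with 9 below 0 and 11 above, and the PODXL start region was still called at -0.45 (adjusted p = 0.00399). Mid replicate 1 was the deepest library, with 29025274 reads and the lowest TMM factor, 0.917, and the part of depth in this pattern was not tested.

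Wide regions leaned toward the mid population throughout the table, and the marker regions were wider than most. Among the widest 10% of all regions 22.4% were called more accessible in the mid population, and their median log2 fold change was -0.23. Of the 20 marker regions 6 were among these, including the start regions of CD9, EPCAM, EPCAM-DT and PODXL. All 6 were below 0, with a median of -0.15, and 1 was called. The other 14 had a median of -0.09, against 0.06 for all regions of those widths. Across the 20 regions Spearman's rho between width and log2 fold change was -0.37, and it was -0.19 across all 118556 regions. With loess offsets on region width the 20 regions split into 10 below and 10 above 0, with a median of -0.06. The part of width in the PODXL difference was not otherwise tested.

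**Figure D3:**
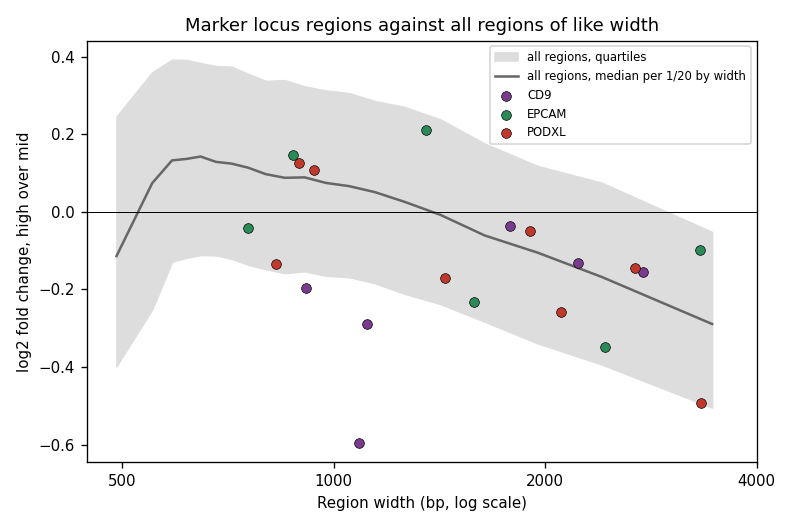
Estimated log2 fold changes (high over mid) against region width (bp, log scale) for the 20 marker regions, coloured by gene; the grey line and band are the median and quartiles of all 118556 regions in 20 classes of width. The median line lies below 0 for the widest classes and also for the narrowest class, at -0.11. The PODXL start region, at -0.49, lies close to the lower quartile for its width, and the CD9 region at -0.60 lies below the band.

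Summed over a window, CD9 had 64.7, 76.7 and 84.6 CPM in the high samples and 93.6, 79.6 and 83.8 in the mid samples. The groups overlapped, the means were 75.3 ± 10.1 and 85.7 ± 7.20, and the difference of -0.19 in log2 was within the spread (exact permutation test, two-sided, p = 0.3). EPCAM had 100.4, 103.4 and 113.3 CPM in the high samples and 135.2, 106.5 and 114.1 in the mid samples. These groups overlapped as well, and the difference of -0.16 in log2 gave an exact permutation p of 0.2. The EPCAM pairs were all below 0, at -0.43, -0.04 and -0.01. PODXL had 94.4, 107.7 and 104.7 CPM in the high samples and 130.0, 122.8 and 115.9 in the mid samples. Here the groups did not overlap, with means of 102.3 ± 6.96 and 122.9 ± 7.05, and all 3 pairs were lower in the high sample. The difference of -0.27 in log2 gave an exact permutation p of 0.1, the smallest that 3 samples against 3 allow. Without the replicate 1 pair the differences were -0.02 for CD9, -0.03 for EPCAM and -0.17 for PODXL. With total counts in place of TMM they were -0.10, -0.07 and -0.17. With upper quartile scaling they were -0.22, -0.19 and -0.29, and the exact permutation p was 0.1 for each of the 3 loci. Widening the windows by 50 kb gave -0.25 for CD9 (exact permutation p = 0.1), -0.13 for EPCAM (exact permutation p = 0.2) and -0.18 for PODXL (exact permutation p = 0.3), so which locus separated the groups changed with these choices.

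The share of a window's reads that fell in its most-read region does not depend on library scaling. For PODXL the share was 41.9%, 35.9% and 33.7% in the high samples and 47.1%, 40.7% and 42.3% in the mid samples. The groups overlapped through high replicate 1, although every pair was lower in the high sample, with differences of -5.14, -4.88 and -8.66 percentage points. Means were 37.2 ± 4.29% and 43.4 ± 3.29%, with an exact permutation p of 0.2. With the windows widened by 50 kb the difference of -6.23 percentage points became 0.584. For CD9 the shares averaged 32.3 ± 3.97% and 31.4 ± 2.58% (exact permutation p = 0.8), and for EPCAM 38.6 ± 3.35% and 36.9 ± 3.39% (exact permutation p = 0.7).

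The 3 loci were also set against each other within samples. The log2 difference between the populations was 0.03 lower for CD9 than for EPCAM (-0.03, exact permutation p = 0.8), 0.07 higher for CD9 than for PODXL (p = 0.6 by the same exact test) and 0.11 higher for EPCAM than for PODXL (exact permutation p = 0.4). After adjustment over the 3 pairs of loci each exact permutation p was 0.8. These tests do not use the pairing. By pairs, EPCAM minus PODXL was above 0 in all 3 (0.03, 0.15 and 0.14), while the other 2 differences had pairs on both sides of 0. No difference between the loci passed the test, in a design whose smallest p is 0.1.

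**Figure D4:**
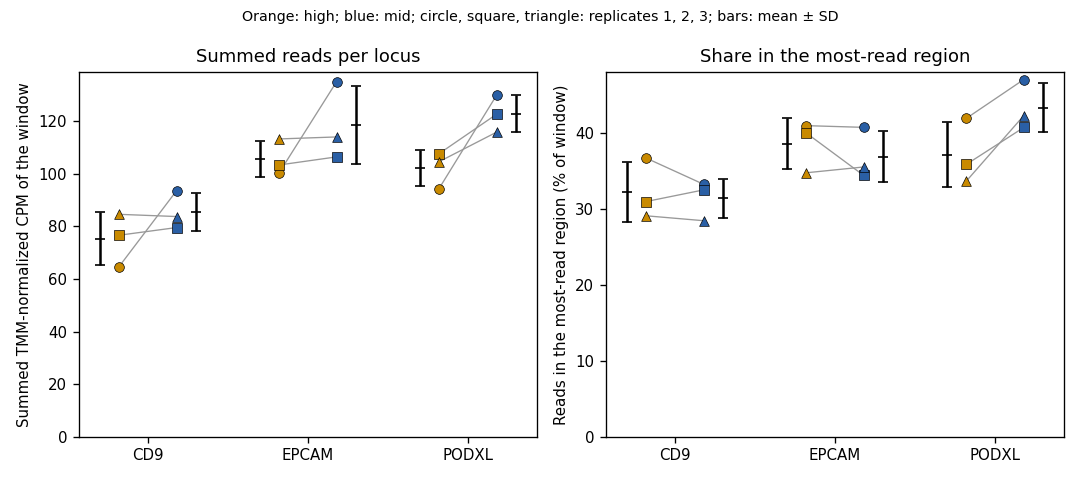
Left, CPM summed over all regions of the CD9, EPCAM and PODXL windows; right, the percent of those reads in the most-read region of the window. Orange symbols are high and blue symbols mid samples, circles, squares and triangles are replicates 1, 2 and 3, grey lines join same-numbered samples, and bars give the mean ± SD; the summed CPM of the high and mid samples separate, with TMM scaling, for PODXL only, and replicate 1 has the steepest line in each window of the left plot.

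The regions whose CPM followed each most-read region most closely over the 6 samples lay on other chromosomes or far away. For the PODXL start they were chr16:70098508-70100909 (Pearson r = 0.9996 on log2 CPM) and chr3:49590634-49592909 (r = 0.9993), with log2 fold changes of -0.68 and -0.46. For the CD9 start they were chr14:103574391-103575641 (r = 0.9981) and chr12:86042803-86043383 (r = 0.9981), and for the EPCAM-DT start chr9:6643694-6647337 (r = 0.9977) and chr6:10800816-10801951 (r = 0.9968). Such likeness is a description over 6 libraries, which fall into the same 2 gates and differ in depth in the same way for every region. An r above 0.95 was reached by 1782 of the other 118555 regions for PODXL, 354 for CD9 and 236 for EPCAM. Between the most-read regions of the 3 markers r was 0.80 for CD9 with EPCAM, 0.78 for CD9 with PODXL and 0.60 for EPCAM with PODXL.

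Genes whose products partner or resemble the markers were read in windows set from general knowledge of hg19 gene positions, which can hold regions of neighbouring genes. Together with other stem cell surface antigens they held 87 regions, of which none was called toward the high and 8 toward the mid population, with a median log2 fold change of -0.22. Over the whole table the shares called were 2.32% toward high and 3.77% toward mid. All 8 were among the widest 10% of regions, as were 28 of the 87, and of all regions that wide 22.4% were called toward mid. The CD9 list (CD81, CD82, CD63, CD151, PTGFRN, IGSF8 and ITGA6) had 4 of 30 regions called toward mid, the EPCAM list (CLDN7 and CDH1) 2 of 12, the PODXL list (PODXL2, CD34, EZR and SLC9A3R1) 1 of 17 and the other antigens (PROM1, THY1, ALPL and F11R) 1 of 28. Regions of the widest 10% numbered 11, 5, 5 and 7 in these lists, so no list is set apart by its count. Both regions of the window of CLDN7, the claudin that binds EPCAM, were called. The wider, at chr17:7161558-7167417, had CPM of 47.7, 43.6 and 48.7 in the high samples and 106.8, 74.5 and 77.5 in the mid samples. The other, at chr17:7154255-7156605, had 26.8, 26.7 and 26.7 CPM in the high samples and 49.3, 52.1 and 45.6 in the mid samples, and both had a log2 fold change of -0.87 (adjusted p = 9.48e-07 and 2.00e-06). Every high sample was far below every mid sample in both.

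CD81, a tetraspanin closely related to CD9, had its called region at chr11:2397704-2400031. Its CPM were 17.9, 20.9 and 19.4 in the high samples and 34.7, 34.3 and 27.4 in the mid samples, a log2 fold change of -0.72 (SE 0.14, adjusted p = 0.000172). The other 5 called regions lay in the windows of SLC9A3R1, CD82, CD151, CD63 and ALPL, named after their values were seen, with log2 fold changes from -0.59 to -0.48. Regions of PROM1, the gene of the stem cell antigen CD133, had a median of 0.25 with none of 11 called. Without the replicate block 3 of the 8 stayed called toward mid, namely both CLDN7 regions and that of CD81. Without the replicate 2 pair 1 of the 87 regions was called toward mid, and without the replicate 1 pair 5 were, with 1 toward high. Calls toward mid over the whole table fell from 4472 to 1312 without the block and to 438 without the replicate 2 pair. They were 4338 without the replicate 1 pair.

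Every region of the table was called as open, so the windows of genes that mark the cell type are described by how well read they were. The POU5F1 window held a region in the 90.8th percentile of all regions for CPM per kb, and the best-read regions of NANOG, SOX2 and DPPA4 lay in the 75.7th, 97.9th and 75.3rd. The POU5F1 region was called toward mid at -0.45 (adjusted p = 0.00869), and 8 of the 9 regions of these 4 genes were below 0. The POU5F1 region was 5123 bp wide, and 4 of the 9 were among the widest 10% of all regions. Of all regions that wide 22.4% were called toward mid, and 8740 of 11862 were below 0. Of the regions of other widths 46412 of 106694 were below 0. Whether the 9 regions differed from others of their widths was not tested. Of genes that define other cell types, the window of the pancreatic hormone INS held no region and that of the liver gene ALB held 1, in the 5.53rd percentile. PTPRC, a blood cell gene, held 8 regions, and its best-read, in the 77.8th percentile, ranked above those of NANOG and DPPA4. Of these 8 regions 1 of 774 bp was called toward high (1.01, adjusted p = 0.00166). Summed CPM over these 8 were 50.6 ± 6.47 for high and 38.1 ± 4.54 for mid, and their part in the marker results was not tested. Without the replicate block neither the POU5F1 region (adjusted p = 0.0525) nor the PTPRC region (adjusted p = 0.027) was called.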

How the data were processed

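Accessibility was measured in 6 FAST-ATAC libraries of sorted WA09 cells. After trimming (Trimmomatic), alignment to hg19 (BWA 0.7.15), duplicate removal and a shift of each read to its Tn5 cut, the authors called regions by MACS (1.4.2 in the submitters' processing notes, another release in the methods) on pooled replicates and merged them across populations. What they deposited was an unnormalized count for every region in every sample. Merged regions differ in width, and wide regions collect more reads. Starts are given 1 higher than deposited, since the table was read as counting from 0.

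The test was edgeR's quasi-likelihood test (4.0.16, R 4.3.3) on all 118556 regions without a filter, scaled by TMM, with Benjamini-Hochberg adjustment and a threshold of 0.01. DESeq2 1.42.0 and limma 3.58.1 (loess, span 0.3) served for alternatives, and scipy 1.17.1 for the exact permutation tests of summed CPM and shares. Fits were tested on simulated data. The replicate number entered as a block because the study fitted a batch term and the labels give each number once in each population: after subtraction of group means, same-numbered samples correlated with r of 0.302, 0.191 and 0.234, and those of other pairs with r from -0.257 to 0.0599. Standard errors and intervals come from this fit, which removes shifts shared by a pair and takes part of its variance estimate from other regions. They are not the spread of a region's own samples or pairs.

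Described in full were, in each window, the region of highest mean CPM, that of smallest p toward each population and every called region. For the partner windows these were at most the 3 called regions of smallest p in each direction. The loci, lists and partner windows were chosen with earlier results of these data known. Alternatives covered the block, batch coding, test, scaling, a filter on low counts, the threshold, the windows and each pair or sample left out. Gene annotation of hg19 was not used here, and an item considered for the partner list is not reported here.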

Additional observations from a re-analysis of the deposited data

How the results depend on the processing

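The number of marker regions called toward the mid population was 1 and small enough to change with many settings. It was 0 without the replicate block, with total counts only and with loess offsets on average log2 CPM, and 2 with upper quartile scaling, at an adjusted p under 0.05 (both times with the CD9 region at 6304544 added) and with windows widened by 50 kb. Widening gave 39 regions and added a called region at chr12:6233415-6234316, 902 bp wide and far before CD9 (-1.14, adjusted p = 0.00136). Leaving out pairs or single samples gave 0 to 1: it was 0 without the replicate 2 pair, high replicate 2, mid replicate 2 or mid replicate 3. With loess offsets on region width the count stayed at 1, but the called region was that of CD9 at 6304544 and not the PODXL start. The number called toward the high population was 0 in every setting run.

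In the partner windows, 3 regions were called toward mid without the replicate block and 14 at an adjusted p under 0.05, and leaving out pairs, an alternative chosen after the data were seen, gave 1 to 10. Toward high the count was 3 with total counts only and 3 at an adjusted p under 0.05, and it was 0 to 1 with pairs left out.

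In the windows read here, the only other calls that the fit without the block lost were those of the POU5F1 and PTPRC regions. Over all regions that fit lost most calls. They fell from 2747 to 280 toward high and from 4472 to 1312 toward mid. Leaving out pairs moved the difference in the share of reads in the most-read region from -0.445 to 2.06 percentage points at CD9, from -0.270 to 2.92 at EPCAM and from -6.90 to -5.01 at PODXL, where widened windows gave 0.584. The log2 difference of CD9 from EPCAM was between -0.0583 and 0.0063 with pairs left out and 0.0014 with regions wholly inside the windows. That of CD9 from PODXL was -0.0763 with widened windows. None of these had passed a test. Over all regions the median log2 fold change was 0.12 with total counts only.

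Some single estimates near 0 changed sign: the CD9 start region to 0.0426 with loess offsets on region width, and the EPCAM-DT start region to 0.131 and 0.150 with loess offsets on average log2 CPM and on region width. With pairs or single samples left out, the EPCAM-DT start region ran from -0.231 to 0.0643, above 0 without either or both of the replicate 1 samples, and the PODXL region at 131266007 from -0.000309 to 0.215, below 0 without the replicate 3 pair or mid replicate 3. The cause was not tested for any of these changes. Depth limits the shallow regions: those with the fewest reads in the PODXL and EPCAM windows, 435 and 436, had a standard error of 0.23, against 0.12 at the PODXL start.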
